A study of Mus musculus with 12 samples.

Results

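The 10 genes studied here mark the mesothelium and the epicardium, the mesothelial sheet over the heart, and were followed during *Sox17*-*Erg* reprogramming of mouse cardiac fibroblasts: *Wt1*, *Tbx18*, *Upk3b*, *Upk1b*, *Msln*, *Lrrn4*, *Krt8*, *Krt18*, *Krt19* and *Muc16*. They were chosen by symbol, with earlier results of these data known. Through the Ensembl identifiers of the count table, each symbol matched 1 identifier. The set holds 10 of the 35727 genes of the table, and all 10 were among the 15506 genes that passed the filter on low counts.

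Bulk RNAseq was measured in 12 libraries, 2 in each of 6 groups: control and *Sox17*-*Erg* cultures on Day 3, on Day 7 and at 4 weeks. All cultures were grown in EGM2, an endothelial growth medium, from heart fibroblasts of C57BL/6J neonatal mice whose hearts were pooled, selected for THY1 on a magnetic column and infected with retrovirus the day after isolation. The labels call the control cells fibroblasts and the *Sox17*-*Erg* cells iECs (induced endothelial cells), and the control column names carry the name of the retroviral vector backbone. Nothing in the sources says that the 2 libraries of a group came from separate isolations, so p-values measure only the spread between these libraries, which may be technical.

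The epicardium covers the heart muscle and, like the mesothelium of other body cavities, is an epithelium of mesodermal origin that keeps simple epithelial keratins and an apical coat of glycoproteins. In the embryo, epicardial cells undergo an epithelial to mesenchymal transition and give rise to cardiac fibroblasts and mural cells. WT1 and TBX18 are among its transcription factors. Mesothelin (*Msln*) is a GPI-anchored surface protein and MUC16 is a membrane mucin that binds it. UPK3B and UPK1B are uroplakins, membrane proteins best known from the urothelium. LRRN4 is a leucine-rich repeat membrane protein, and keratins 8, 18 and 19 form the intermediate filaments of simple epithelia.

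Upstream sequence is shown for 4 of the genes because the transduced factors bind DNA, ERG through an ETS core and SOX17 through a SOX core, and because these 4 hold 3 genes whose *Sox17*-*Erg* libraries lay below control at every time point (*Upk3b*, *Lrrn4* and *Muc16*) and 1 that was higher on Day 7 (*Tbx18*). RefSeq promoter tables on GRCm38.p6 held an entry for 6 of the 10 genes. Each run below is the 250 bases before the RefSeq start site, 5′ to 3′ on the gene's strand, with every ETS core (GGAAG, or CTTCC on the other strand) in capitals. In the order printed, the windows are chr5:136038246-136038495 on the plus strand, chr2:132880863-132881112 on the minus strand, chr9:18674604-18674853 on the minus strand and chr9:87731261-87731510 on the minus strand.

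Upk3b: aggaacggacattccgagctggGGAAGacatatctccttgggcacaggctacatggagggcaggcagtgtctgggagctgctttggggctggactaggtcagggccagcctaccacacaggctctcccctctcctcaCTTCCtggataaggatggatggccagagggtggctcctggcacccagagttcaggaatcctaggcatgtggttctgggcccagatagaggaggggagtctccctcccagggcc

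Lrrn4: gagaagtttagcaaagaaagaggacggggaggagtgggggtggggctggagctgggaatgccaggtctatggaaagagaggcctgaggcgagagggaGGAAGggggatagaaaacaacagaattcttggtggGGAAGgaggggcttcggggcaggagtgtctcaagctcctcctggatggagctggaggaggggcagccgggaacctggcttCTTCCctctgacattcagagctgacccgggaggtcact

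Muc16: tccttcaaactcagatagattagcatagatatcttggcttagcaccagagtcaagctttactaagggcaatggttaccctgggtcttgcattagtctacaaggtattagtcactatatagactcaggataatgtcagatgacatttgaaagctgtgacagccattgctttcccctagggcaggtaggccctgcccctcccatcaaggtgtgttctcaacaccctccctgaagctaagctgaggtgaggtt

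Tbx18: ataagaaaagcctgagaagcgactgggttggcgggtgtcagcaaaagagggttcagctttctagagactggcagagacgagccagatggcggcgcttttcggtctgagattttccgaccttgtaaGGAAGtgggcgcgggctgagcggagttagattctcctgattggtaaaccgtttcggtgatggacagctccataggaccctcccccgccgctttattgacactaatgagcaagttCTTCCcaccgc

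*Upk3b* held 2 such matches, *Lrrn4* 3, *Tbx18* 2 and *Muc16* none. The shorter core GGAA was not counted, and it stands unmarked in the *Muc16* window as TTCC. Of the other matched genes, *Krt8* held 1 and *Krt18* none. At least 1 GGAAG match, on either strand, stood in 64.1% of the 32851 promoters of the same length and in 4 of these 6. The SOX core ACAAT, or ATTGT on the other strand, stood in 27.7% of all promoters and in none of the 6. The matches are letters in a window, and binding was not measured in these libraries. No entry was matched for *Wt1*, *Upk1b*, *Msln* or *Krt19*.

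The libraries held between 19011635 and 41240449 counts. *Sox17* was at 0 to 9 counts in the control libraries and at 10019 to 36238 counts in the *Sox17*-*Erg* libraries. *Erg* was at 2 to 49 counts in the control libraries and at 389 to 1842 in the *Sox17*-*Erg* libraries, so every library went with its label. The 7 fibroblast markers (*Thy1*, *Pdgfra*, *Col1a1*, *Col1a2*, *Dcn*, *Lum*, *Tcf21*) together reached 12432 to 29785 CPM (counts per 1000000 of the TMM-scaled library) in control libraries, and the 7 endothelial markers (*Pecam1*, *Cdh5*, *Kdr*, *Tek*, *Emcn*, *Egfl7*, *Tie1*) reached 16.3 to 56.2 CPM there and 309 to 704 CPM in *Sox17*-*Erg* libraries. *Epcam* and *Cdh1*, which define most other epithelia, did not exceed 0.296 and 0.165 CPM in any library, and the sum of 5 epithelial markers was 0.201 to 0.658 CPM. The keratins and mucin described here were therefore measured in libraries where those defining epithelial markers were at or near 0.

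Most of the mesothelial genes were lower in *Sox17*-*Erg* cells than in control cells, with the median difference farthest from 0 at 4 weeks. A gene was called changed where edgeR's quasi-likelihood test gave a Benjamini-Hochberg adjusted p under 0.05 over all 15506 genes. On Day 3, 2 of the 10 genes fell (*Upk3b* and *Muc16*), where 5.13% of all tested genes fell. On Day 7, 4 fell (*Wt1*, *Upk3b*, *Lrrn4* and *Krt19*) and 1 rose (*Tbx18*), where 7.93% of all genes fell and 9.48% rose. At 4 weeks, 7 fell (all except *Tbx18*, *Krt18* and *Muc16*) and none rose, where 11.0% of all genes fell and 11.9% rose. The median log2 fold change of the 10 genes was -1.70 on Day 3, -1.42 on Day 7 and -2.31 at 4 weeks, against 0.01, 0.01 and -0.01 over all tested genes. Values after ± on the log2 scale are standard errors (SE). In bulk RNA, fewer cells of a type and less RNA per cell cannot be told apart, and this holds for every value below.

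**Figure D1:**
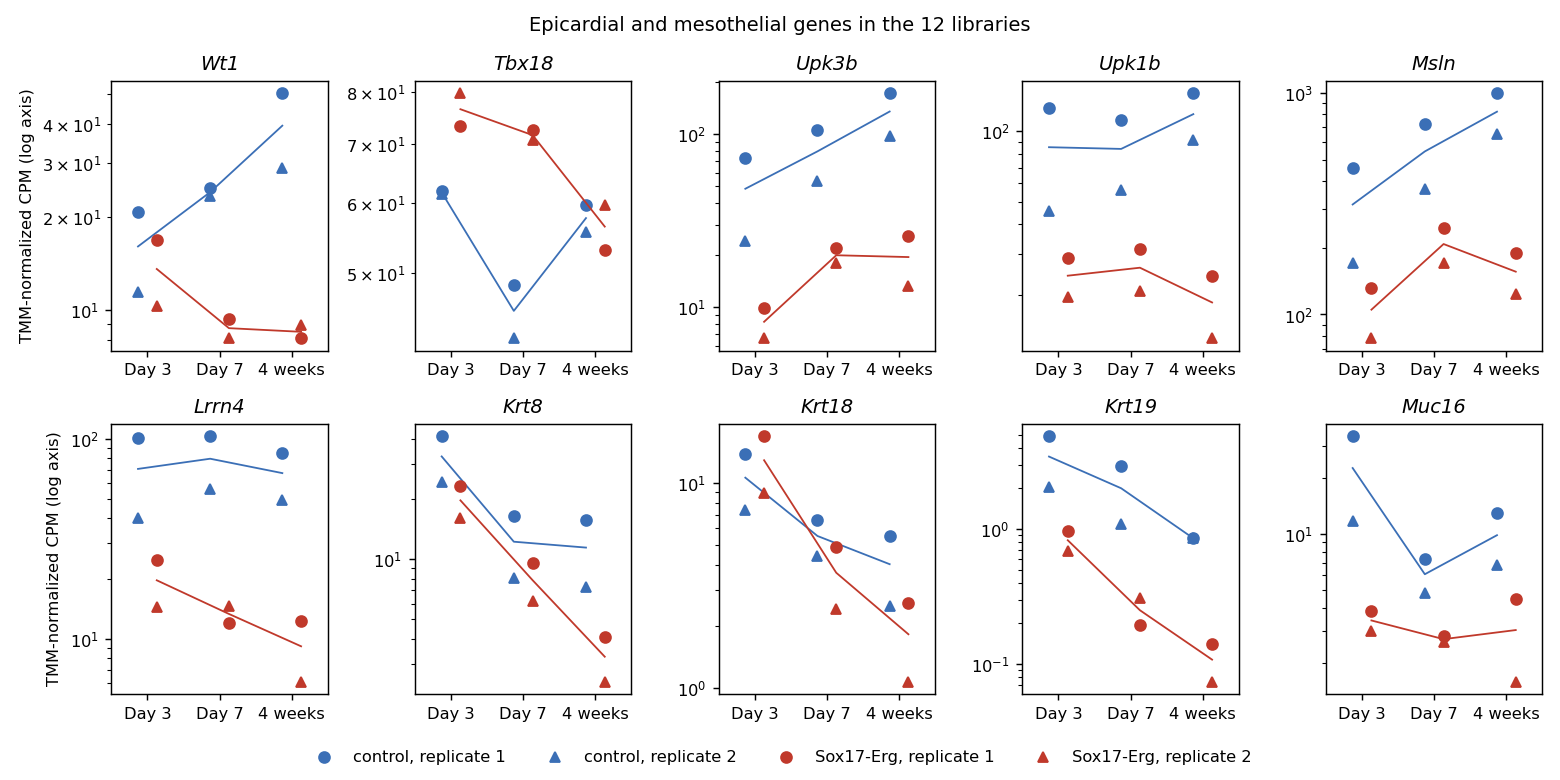
TMM-normalized CPM (log axis, a separate range in each panel) of the 10 genes in each library by time point. Blue points are control libraries, red points *Sox17*-*Erg* libraries, circles replicate 1 and triangles replicate 2, and lines join group means; both *Sox17*-*Erg* libraries lie under both control libraries at all 3 time points for *Upk3b*, *Upk1b*, *Msln*, *Lrrn4*, *Krt19* and *Muc16*.

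The 2 transcription factors differed in direction, since *Wt1* was lower and *Tbx18* was higher on Day 7. *Wt1*, a zinc finger factor needed for the epicardium (chromosome 2, 105126529 to 105173616, plus strand), was at 20.7 and 11.4 CPM in the control libraries on Day 3, 24.8 and 23.3 on Day 7 and 50.3 and 28.8 at 4 weeks. In *Sox17*-*Erg* libraries it was at 16.9 and 10.3 CPM on Day 3, 9.37 and 8.13 on Day 7 and 8.11 and 8.93 at 4 weeks. The groups overlapped on Day 3 and were separate from Day 7 on, with the control level at its highest and the *Sox17*-*Erg* level at its lowest mean at 4 weeks. The log2 fold change was -0.25 ± 0.34 (SE, adjusted p = 0.67) on Day 3, -1.46 ± 0.35 (SE, adjusted p = 0.020) on Day 7 and -2.22 ± 0.35 (SE, adjusted p = 0.0022) at 4 weeks, a level 4.65-fold lower than control. The 4-week call held in all 12 fits that each left out 1 library.

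*Tbx18*, a T-box factor of the epicardium and its derivatives (chromosome 9, 87702800 to 87731260, minus strand), was at 61.9 and 61.5 CPM in control and 73.3 and 79.8 CPM in *Sox17*-*Erg* libraries on Day 3. On Day 7 it was at 48.5 and 42.2 CPM in control and 72.5 and 70.7 CPM in *Sox17*-*Erg* libraries, and at 4 weeks at 59.8 and 55.6 CPM in control and 53.1 and 59.7 CPM in *Sox17*-*Erg* libraries. Both *Sox17*-*Erg* libraries stood above both control libraries on Day 3 and Day 7, and the groups overlapped at 4 weeks. *Tbx18* rose on Day 7, by 0.66 ± 0.11 (SE, adjusted p = 0.0040) on the log2 scale, and this call held in all 12 fits without 1 library but was lost when only the 4 libraries of that day were fitted (adjusted p = 0.062). The values were 0.31 ± 0.11 (SE, adjusted p = 0.089) on Day 3 and -0.03 ± 0.11 (SE, adjusted p = 0.87) at 4 weeks. Its exons share 970 bases with *D030062O11Rik* on the opposite strand, and the sources used here do not state whether the counting used strand, although the kit marks it.

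Mesothelin was the most abundant of the 10 transcripts per length in every group. *Msln* (chromosome 17, 25748613 to 25754378, minus strand) was at 456 and 171 CPM in control libraries on Day 3, 721 and 367 on Day 7 and 995 and 649 at 4 weeks. The *Sox17*-*Erg* libraries held 132 and 77.9 CPM on Day 3, 246 and 169.9 on Day 7 and 189 and 123 at 4 weeks. The groups did not overlap at any time point, yet the lower control library on Day 3 was close to the higher *Sox17*-*Erg* library. The log2 fold change was -1.58 ± 0.52 (SE, adjusted p = 0.076) on Day 3 and -1.39 ± 0.51 (SE, adjusted p = 0.095) on Day 7, neither past the threshold, and *Msln* fell by 2.40 ± 0.53 (SE, adjusted p = 0.011) on the log2 scale at 4 weeks, to a level 5.27-fold lower. *Muc16*, whose product binds mesothelin (chromosome 9, 18495455 to 18674530, minus strand), had its largest fold change on Day 3. It was at 33.6 and 11.8 CPM in control and 3.85 and 2.97 CPM in *Sox17*-*Erg* libraries on Day 3, a log2 fold change of -2.74 ± 0.60 (SE, adjusted p = 0.022) and a level 6.68-fold lower. Later it was at 7.30 and 4.82 CPM in control and 2.81 and 2.59 CPM in *Sox17*-*Erg* libraries on Day 7, and at 4 weeks at 12.9 and 6.79 CPM in control and 4.46 and 1.59 CPM in *Sox17*-*Erg* libraries. These later values gave -1.16 ± 0.59 (SE, adjusted p = 0.21) on Day 7 and -1.70 ± 0.58 (SE, adjusted p = 0.065) at 4 weeks, although the groups did not overlap.

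Both uroplakin genes were lower at 4 weeks, and *Upk3b* at the earlier time points too. *Upk3b* (chromosome 5, 136038496 to 136046487, plus strand) was at 72.5 and 24.2 CPM in control and 9.87 and 6.59 CPM in *Sox17*-*Erg* libraries on Day 3. On Day 7 it was at 105 and 53.8 CPM in control and 22.0 and 17.9 CPM in *Sox17*-*Erg* libraries, and at 4 weeks at 172 and 98.1 CPM in control and 25.7 and 13.3 CPM in *Sox17*-*Erg* libraries. The control libraries always lay above the *Sox17*-*Erg* libraries, and *Upk3b* was the single gene of the 10 called lower at every time point without the replicate block described below. With that block 7 genes were (*Upk3b*, *Upk1b*, *Msln*, *Lrrn4*, *Krt8*, *Krt19* and *Muc16*), and without it the Day 7 call of *Upk3b* was lost in 5 of the 12 fits that left out 1 library, those without the first control library of Day 7 or any *Sox17*-*Erg* library of Day 3 or Day 7. Its log2 fold change was -2.56 ± 0.59 (SE, adjusted p = 0.025) on Day 3, -1.99 ± 0.56 (SE, adjusted p = 0.038) on Day 7 and -2.80 ± 0.57 (SE, adjusted p = 0.0079) at 4 weeks, and its level at 4 weeks was 6.94-fold lower. *Upk1b*, a tetraspanin (chromosome 16, 38773184 to 38800328, minus strand), was at 126 and 45.5 CPM in control and 28.6 and 19.6 CPM in *Sox17*-*Erg* libraries on Day 3. It was at 112 and 56.3 CPM in control and 31.4 and 20.8 CPM in *Sox17*-*Erg* libraries on Day 7, and at 146 and 91.5 CPM in control and 24.1 and 13.0 CPM in *Sox17*-*Erg* libraries at 4 weeks. The groups were separate throughout, and *Upk1b* fell at 4 weeks, with a log2 fold change of -2.68 ± 0.55 (SE, adjusted p = 0.0083), while the values on Day 3, -1.83 ± 0.54 (SE, adjusted p = 0.057), and Day 7, -1.69 ± 0.53 (SE, adjusted p = 0.059), did not pass.

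*Lrrn4* (chromosome 2, 132868305 to 132880891, minus strand) was at 101 and 40.3 CPM in control libraries on Day 3, 103 and 56.3 on Day 7 and 84.9 and 49.7 at 4 weeks. The *Sox17*-*Erg* libraries held 24.7 and 14.5 CPM on Day 3, 12.05 and 14.6 on Day 7 and 12.2 and 6.11 at 4 weeks. Control libraries overlapped between the 3 time points, and the *Sox17*-*Erg* libraries lay below them throughout. *Lrrn4* fell on Day 7, with a log2 fold change of -2.58 ± 0.54 (SE, adjusted p = 0.012), and at 4 weeks, with -2.87 ± 0.55 (SE, adjusted p = 0.0056) and a level 7.33-fold lower. The value on Day 3 was -1.85 ± 0.53 (SE, adjusted p = 0.051).

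The keratins were less uniform. *Krt8* (chromosome 15, 101996698 to 102004482, minus strand), the type II keratin of simple epithelia, was at 41.1 and 24.2 CPM in control and 23.3 and 16.1 CPM in *Sox17*-*Erg* libraries on Day 3. It was at 16.4 and 8.08 CPM in control and 9.57 and 6.15 CPM in *Sox17*-*Erg* libraries on Day 7, where the groups overlapped, and at 15.6 and 7.24 CPM in control and 4.07 and 2.44 CPM in *Sox17*-*Erg* libraries at 4 weeks. *Krt8* fell at 4 weeks, with a log2 fold change of -1.82 ± 0.50 (SE, adjusted p = 0.030). Its values were -0.73 ± 0.47 (SE, adjusted p = 0.33) on Day 3 and -0.63 ± 0.48 (SE, adjusted p = 0.40) on Day 7. *Krt18*, the type I partner of keratin 8 and its neighbour on chromosome 15 (102028180 to 102032027, plus strand), was at 13.8 and 7.40 CPM in control and 16.9 and 8.96 CPM in *Sox17*-*Erg* libraries on Day 3. It was at 6.61 and 4.42 CPM in control and 4.88 and 2.42 CPM in *Sox17*-*Erg* libraries on Day 7, and at 5.51 and 2.52 CPM in control and 2.58 and 1.07 CPM in *Sox17*-*Erg* libraries at 4 weeks. The groups overlapped at each time point and no value passed, with 0.28 ± 0.55 (SE, adjusted p = 0.78), -0.58 ± 0.57 (SE, adjusted p = 0.52) and -1.14 ± 0.59 (SE, adjusted p = 0.20) in order of time.

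*Krt19* (chromosome 11, 100140810 to 100148665, minus strand), a type I keratin, was at 4.84 and 2.03 CPM in control and 0.962 and 0.689 CPM in *Sox17*-*Erg* libraries on Day 3. It was at 2.92 and 1.09 CPM in control and 0.193 and 0.308 CPM in *Sox17*-*Erg* libraries on Day 7, and at 0.852 and 0.854 CPM in control and 0.142 and 0.0741 CPM in *Sox17*-*Erg* libraries at 4 weeks. The groups did not overlap, but the *Sox17*-*Erg* values rested on 7 and 7 counts on Day 7 and on 4 and 2 counts at 4 weeks. *Krt19* fell on Day 7, with -3.01 ± 0.64 (SE, adjusted p = 0.013), and at 4 weeks, with -2.92 ± 0.72 (SE, adjusted p = 0.018), and missed the threshold on Day 3, with -2.06 ± 0.58 (SE, adjusted p = 0.0501). For *Krt8*, 32.3% of the 31-base words of its transcripts also occur in other genes, mostly in *Krt8-ps* (32.2%), and for *Krt18* 11.4%, mostly in *Gm5200* (9.31%). These copies held at most 1 count in any library, so nearly all estimated counts were assigned to *Krt8* and *Krt18*, and the share that belongs to the copies is uncertain. *Krt8* also shares 101 exon bases with *Gm36026* on the opposite strand.

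Taking the 3 time points together, an exact two-sided permutation test over all 216 arrangements of libraries within time points was applied to the mean difference in log2 CPM. *Upk3b* (-2.37), *Upk1b* (-2.0), *Msln* (-1.73), *Lrrn4* (-2.39), *Krt19* (-2.26) and *Muc16* (-1.81) each gave p = 0.0093, the smallest p these permutations can give. That p was reached by 28.3% of all tested genes. *Krt8* gave a mean difference of -1.0 (exact p = 0.028), *Wt1* -1.28 (exact p = 0.019), *Tbx18* 0.31 (exact p = 0.046) and *Krt18* -0.50 (exact p = 0.28). With treatment swapped only within same-numbered pairs, which gives 64 arrangements and a smallest exact p of 0.031, these 6 genes, *Wt1* and *Krt8* reached that p, as did 40.6% of all tested genes, and *Tbx18* (exact p = 0.094) and *Krt18* (exact p = 0.16) did not pass. *Sox17*-*Erg* and control libraries did not overlap, with *Sox17*-*Erg* lower, for 7 of the 10 genes on Day 3, 7 on Day 7 and 8 at 4 weeks, against 29.9%, 28.8% and 32.4% of all tested genes.

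A difference between the 2 libraries of a group ran through these genes. The first library was higher than the second in all 6 groups for 6 of the 10 genes (*Upk3b*, *Upk1b*, *Msln*, *Krt8*, *Krt18* and *Muc16*), in 5 groups for *Wt1* and *Lrrn4*, and in 4 for *Tbx18* and *Krt19*. Of all 15506 tested genes, 2.96% were higher in the first library in all 6 groups and 2.70% lower. For *Msln* the first library held 2.66 times the second in control on Day 3, 1.96 times on Day 7 and 1.53 times at 4 weeks, and 1.70, 1.45 and 1.53 times in *Sox17*-*Erg* cells. Among these genes the first library was thus mostly the higher one in both treatments. The marker sums of other cell types did not share 1 order over the groups. Abundant members carried several of these sums. *Col1a1* and *Col1a2* reached 19233 and 10859 CPM, and no other fibroblast marker exceeded 2855 CPM (*Dcn*). *Tnnt2* reached 1431 CPM, and no other cardiomyocyte marker exceeded 135 CPM (*Myh6*). *Lyz2* reached 1011 CPM, and no other macrophage marker exceeded 75.6 CPM (*C1qa*). The cardiomyocyte sum was higher in the first library in 4 of the 6 groups, for example 1499 and 873 CPM in control on Day 3 but 1027 and 1259 CPM in control at 4 weeks. The fibroblast sum was 24649 and 29785 CPM in control on Day 3 and 13951 and 12432 CPM in control at 4 weeks, and was higher in the first library in 2 groups. The endothelial sum was lower in the first library in the 3 control groups and higher in the 3 *Sox17*-*Erg* groups. The macrophage sum was lower in the first library in 5 groups, most at 4 weeks, with 42.7 and 376 CPM in control and 57.2 and 288 CPM in *Sox17*-*Erg* libraries. The smooth muscle sum was higher in the first library in 5 groups. The part of these cells in the difference between libraries was not tested.

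**Figure D2:**
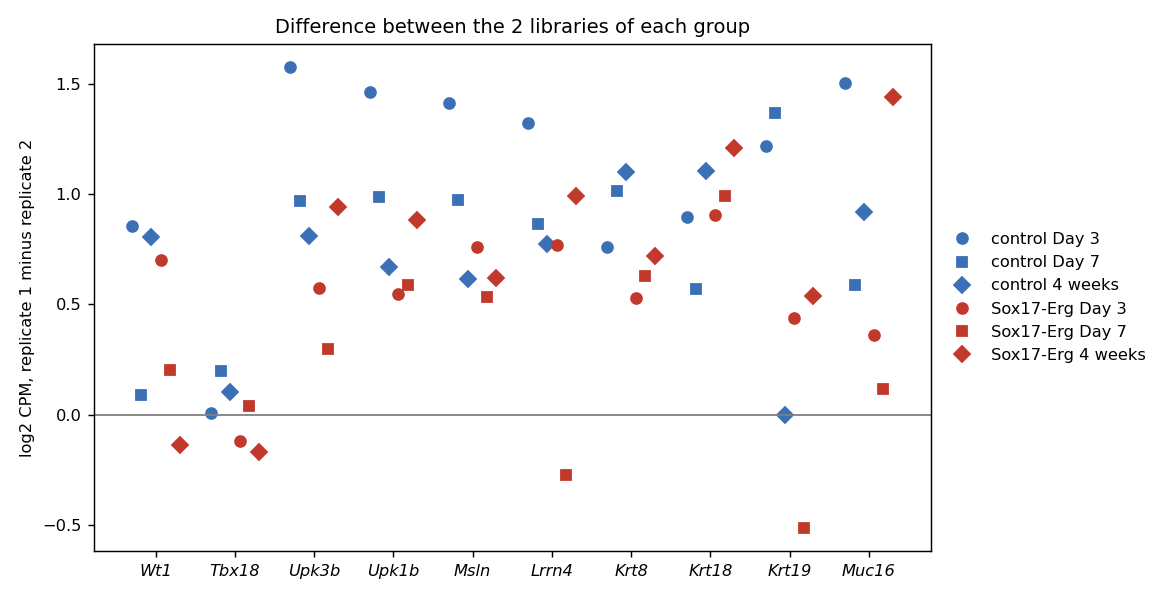
Log2 CPM of replicate 1 minus replicate 2 in each of the 6 groups for the 10 genes, with control groups in blue and *Sox17*-*Erg* groups in red, and circles, squares and diamonds for Day 3, Day 7 and 4 weeks. All 6 points lie above 0 for *Upk3b*, *Upk1b*, *Msln*, *Krt8*, *Krt18* and *Muc16*.

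Because same-numbered *Sox17*-*Erg* and control libraries deviated together at each time point, the comparison was also fitted with the replicate number as a block within each time point, and more of these genes then passed. With the block, 7 genes fell on Day 3, where 10.4% of all tested genes fell. The added calls were *Upk1b* (-1.68 ± 0.22, adjusted p = 0.0039), *Msln* (-1.46 ± 0.18, adjusted p = 0.0034), *Lrrn4* (-1.76 ± 0.27, adjusted p = 0.0060), *Krt8* (-0.71 ± 0.15, adjusted p = 0.017) and *Krt19* (-1.96 ± 0.52, adjusted p = 0.036), each as a log2 fold change. On Day 7, 9 genes fell and *Tbx18* rose, where 13.3% of all genes fell and 13.8% rose. The added calls were *Upk1b* (-1.64 ± 0.22, adjusted p = 0.0025), *Msln* (-1.33 ± 0.18, adjusted p = 0.0027), *Krt8* (-0.60 ± 0.16, adjusted p = 0.031), *Krt18* (-0.64 ± 0.18, adjusted p = 0.042) and *Muc16* (-1.15 ± 0.30, adjusted p = 0.032). At 4 weeks, 9 genes fell, where 15.5% of all genes fell, with *Krt18* (-1.15 ± 0.20, adjusted p = 0.0050) and *Muc16* (-1.78 ± 0.30, adjusted p = 0.0050) added. *Wt1* on Day 3 (-0.22 ± 0.21, adjusted p = 0.49) and *Tbx18* at 4 weeks (-0.03 ± 0.11, adjusted p = 0.84) did not pass with the block.

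**Figure D3:**
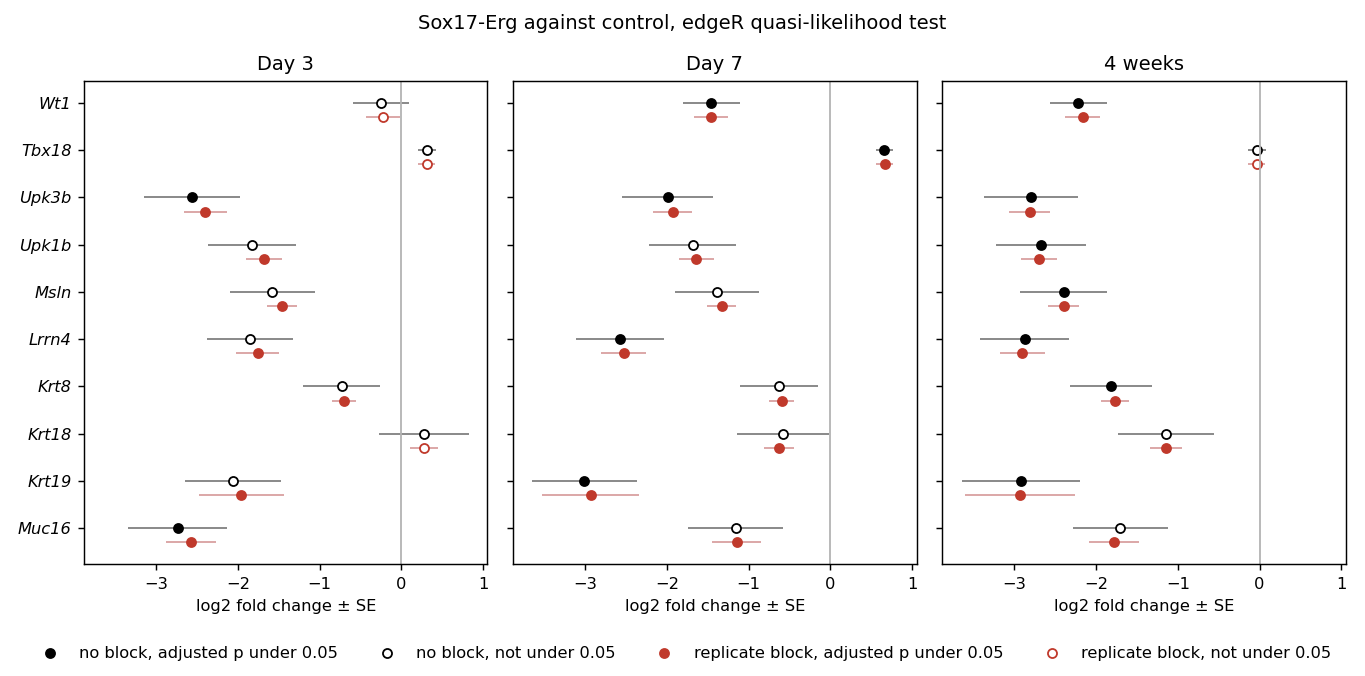
Log2 fold change of *Sox17*-*Erg* against control with its SE for the 10 genes on Day 3, on Day 7 and at 4 weeks, without (black) and with (red) the replicate number as a block; filled points have an adjusted p under 0.05. With the block the genes called lower go from 2 to 7 on Day 3, from 4 to 9 on Day 7 and from 7 to 9 at 4 weeks.

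Without the block, the counts rested on single libraries. On Day 3 none of the 10 genes was called without the first control library or without either *Sox17*-*Erg* library of that day. On Day 7 *Tbx18* alone was called without the first control or the first *Sox17*-*Erg* library, and 3 genes without the second *Sox17*-*Erg* library. At 4 weeks 2 genes (*Wt1* and *Lrrn4*) were called without the second *Sox17*-*Erg* library and 4 without the first control library. A group left with 1 library is assumed in these fits to vary like the other groups. Fewer of all tested genes were called lower in these fits too, except in the Day 7 fit without the second *Sox17*-*Erg* library. Whether the loss was particular to these genes was not tested.

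The control cultures give the course of these genes over time in fibroblasts held in the same medium without transduced *Sox17* and *Erg*. There *Wt1* rose while 2 of the keratins fell. From Day 3 to 4 weeks *Wt1* rose, with a log2 fold change of 1.30 ± 0.34 (SE, adjusted p = 0.022), where 13.9% of all tested genes rose. *Krt8* fell, with -1.51 ± 0.48 (SE, adjusted p = 0.044), and *Krt19* fell, with -2.01 ± 0.57 (SE, adjusted p = 0.030), where 12.6% of all genes fell. Leaving out 1 library, *Wt1* was called in 10 of 12 fits, *Krt19* in 9 and *Krt8* in 3. *Wt1* was lost without the second control library of Day 3 or the first of 4 weeks, and neither keratin was called without the first control library of Day 3 or the second of 4 weeks. Both keratins were also lost with a block whose numbers were crossed at 4 weeks, and *Wt1* (adjusted p = 0.063) and *Krt8* (adjusted p = 0.060) when only the 4 libraries compared were fitted. The control values of *Upk3b* (1.48 ± 0.54, adjusted p = 0.074), *Msln* (1.39 ± 0.51, adjusted p = 0.074) and *Krt18* (-1.39 ± 0.57, adjusted p = 0.10) did not pass. *Upk1b* (0.47 ± 0.52, adjusted p = 0.54), *Lrrn4* (-0.07 ± 0.50, adjusted p = 0.94), *Muc16* (-1.20 ± 0.56, adjusted p = 0.14) and *Tbx18* (-0.10 ± 0.11, adjusted p = 0.55) had no call either. In a fit blocked on the replicate number across the 12 libraries, 3 genes rose (*Wt1*, *Upk3b* and *Msln*) and 4 fell (*Krt8*, *Krt18*, *Krt19* and *Muc16*), where 14.7% of all genes rose and 13.1% fell. Same-numbered control libraries of Day 3 and 4 weeks correlated at -0.10 in their deviations from group means.

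From Day 3 to Day 7 in control cells only *Tbx18* of the 10 genes was called, and it fell, with a log2 fold change of -0.44 ± 0.11 (SE, adjusted p = 0.038), where 4.06% of all genes fell. This call was kept in 1 of 12 fits without 1 library (the fit without the first control library of Day 7), and was lost with library totals, with only the 4 libraries compared and with no filter on low counts. *Muc16* (-1.91 ± 0.57, adjusted p = 0.071) and *Krt8* (-1.42 ± 0.48, adjusted p = 0.096) had values farther from 0 that did not pass. Same-numbered control libraries of Day 3 and Day 7 correlated at 0.17 in their deviations. In a fit blocked on the replicate number across the 12 libraries, *Msln* rose (0.85 ± 0.21, adjusted p = 0.041) and *Tbx18* (-0.44 ± 0.11, adjusted p = 0.044), *Krt8* (-1.45 ± 0.16, adjusted p = 0.0040), *Krt18* (-0.90 ± 0.19, adjusted p = 0.027) and *Muc16* (-1.79 ± 0.34, adjusted p = 0.018) fell, where 5.58% of all genes rose and 4.51% fell. From Day 7 to 4 weeks none of the 10 was called by edgeR or by DESeq2, and 1 (*Tbx18*, log2 fold change 0.35 ± 0.11, SE) had an unadjusted p under 0.05. In that interval 0.393% of all tested genes were called in either direction.

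In the *Sox17*-*Erg* cultures, 4 genes fell from Day 3 to 4 weeks, where 15.6% of all tested genes fell, and 3 of them were the keratins. *Krt8* had a log2 fold change of -2.59 ± 0.51 (SE, adjusted p = 0.0066), *Krt18* of -2.81 ± 0.61 (SE, adjusted p = 0.0091) and *Krt19* of -2.87 ± 0.73 (SE, adjusted p = 0.018). *Tbx18* fell too, with -0.44 ± 0.11 (SE, adjusted p = 0.015). In a fit blocked on the replicate number across the 12 libraries, 1 of the 10 genes rose and 5 fell, where 2478 of 15506 tested genes rose and 2453 fell. With DESeq2, 1 rose and 4 fell, where 2606 of 16220 rose and 2300 fell. *Krt8* was called in all 12 fits without 1 library. *Krt8* alone was called without the first *Sox17*-*Erg* library of Day 3, and 2 of the 10 genes without either *Sox17*-*Erg* library of 4 weeks. *Tbx18* was also lost without the second *Sox17*-*Erg* library of Day 3. The fits that lost calls also called fewer of all tested genes lower. *Wt1* was at -0.67 ± 0.35 (SE, adjusted p = 0.17) over the same interval, opposite in sign to its value in control cells. *Upk3b* was at 1.25 ± 0.57 (SE, adjusted p = 0.13), *Msln* at 0.57 ± 0.51 (SE, adjusted p = 0.43), *Lrrn4* at -1.09 ± 0.53 (SE, adjusted p = 0.15), *Upk1b* at -0.38 ± 0.53 (SE, adjusted p = 0.63) and *Muc16* at -0.17 ± 0.60 (SE, adjusted p = 0.86). This comparison and those above share libraries, so their values are set side by side and were not correlated.

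Whether the effect of *Sox17*-*Erg* itself differed between 4 weeks and Day 3 was tested as an interaction. No gene of the 10 passed in the fit without the block, where 3.21% of all genes were called in either direction, and 2 of the 10 (*Wt1* and *Tbx18*) had an unadjusted p under 0.05. *Wt1* had the largest difference, -1.97 ± 0.48 (SE, adjusted p = 0.067) on the log2 scale, and DESeq2 called it (1 gene called). With the block within time points, 3 genes had a lower effect at 4 weeks, where 2.77% of all genes did: *Wt1* (-1.94 ± 0.30, adjusted p = 0.016), *Krt8* (-1.06 ± 0.22, adjusted p = 0.039) and *Krt18* (-1.43 ± 0.26, adjusted p = 0.026). The effects on *Upk3b* (-0.23 ± 0.78, adjusted p = 0.93, without the block) and on *Msln* (-0.82 ± 0.71, adjusted p = 0.64) were not shown to differ between the time points.

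Per length, the order of the 10 genes also differed between treatments. On the scale of CPM per kilobase of exon, *Msln* led every group, with a mean of 268 ± 79.9 (SD, n = 2) in control and 50.9 ± 15.2 in *Sox17*-*Erg* cells at 4 weeks. *Tbx18* was the second in all 3 *Sox17*-*Erg* groups, at up to 16.2 CPM per kilobase, with its libraries overlapping those of *Upk1b* on Day 7 and at 4 weeks, and the fifth or the sixth in the control groups, at 9.61 to 13.1. *Upk1b* was the second in every control group, with a mean of 56.7 ± 18.3 CPM per kilobase at 4 weeks, and its libraries overlapped those of the next gene in each of them. *Muc16* was the lowest per kilobase in every group except *Sox17*-*Erg* cells at 4 weeks, where *Krt19* was the lowest. The libraries of the 2 genes overlapped in 4 of the 6 groups.

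The genes whose log2 CPM followed *Msln* most closely over the 12 libraries were *Rnf39* and *B4galt4* (both Pearson r = 0.96), *Plekha7* (0.96), *Ptprq* (0.95) and *1190002N15Rik* (0.95). For *Krt8* they were *Tmem108* (0.96), *Gcsh* (0.94), *Spint1* (0.94), *Zdbf2* (0.94) and *Mum1l1* (0.94). These points share treatment, time and library, and the correlations are descriptions chosen from all tested genes.

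Other genes of the mesothelium and epicardium, in a list of 20, were also mostly lower in *Sox17*-*Erg* cells. This list and those below were chosen with earlier results of these data known, so their direction is not independent evidence. Of the 18 that were tested, 5 fell and 1 rose on Day 3, 10 fell and 2 rose on Day 7, and 12 fell and 1 rose at 4 weeks. Of all tested genes 5.13%, 7.93% and 11.0% fell and 7.19%, 9.48% and 11.9% rose. Their median log2 fold changes were -1.38, -1.66 and -2.02, against 0.01, 0.01 and -0.01 over all tested genes. With the replicate block, 12, 12 and 14 fell and 2, 3 and 3 rose, where 10.4%, 13.3% and 15.5% of all genes fell and 12.7%, 13.8% and 15.5% rose. *C3*, a complement component, was at 2683 and 2988 CPM in control and 129 and 205 CPM in *Sox17*-*Erg* libraries at 4 weeks, a log2 fold change of -4.09 ± 0.49 (SE, adjusted p = 0.00052). In control cells *C3* stood at 25.3 and 12.6 CPM on Day 3 and 741 and 846 CPM on Day 7. *Efemp1*, an extracellular matrix fibulin, was at 177 and 88.9 CPM in control and 16.4 and 8.70 CPM in *Sox17*-*Erg* libraries at 4 weeks, with -3.41 ± 0.54 (SE, adjusted p = 0.0022). *Aldh1a2*, the retinoic acid synthesis enzyme of the epicardium, fell on Day 7 from 12.8 and 12.4 CPM to 2.45 and 3.69 CPM, with -2.05 ± 0.31 (SE, adjusted p = 0.0026). *Crb2*, an apical polarity gene, fell at 4 weeks from 14.9 and 13.3 CPM to 2.65 and 2.78 CPM, with -2.37 ± 0.40 (SE, adjusted p = 0.0030).

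The genes of this list that rose were *Bnc2*, a zinc finger gene, at all 3 time points (1.42 ± 0.22, 0.83 ± 0.21 and 0.65 ± 0.21 on the log2 scale, with adjusted p = 0.0066, 0.027 and 0.049) and *Itga4*, an integrin subunit, on Day 7 (1.71 ± 0.41, adjusted p = 0.021); both were named after their values were seen. Leaving out 1 library, *Bnc2* was called in 10 of 12 fits on Day 3, 9 on Day 7 and 0 at 4 weeks, and *Itga4* in 10 on Day 7. *Bnc2* was lost on Day 3 without the second control or the first *Sox17*-*Erg* library of that day, and on Day 7 without either control or the first *Sox17*-*Erg* library, and *Itga4* on Day 7 without the second control or the first *Sox17*-*Erg* library. With the block, the genes that rose were *Bnc2* and *Itga4* at all 3 time points and *Anxa8*, an annexin, on Day 7 (adjusted p = 0.035) and at 4 weeks (adjusted p = 0.0029). In that fit *Anxa8* fell on Day 3, with a log2 fold change of -1.37 (adjusted p = 0.0096). *Bnc1*, the relative of *Bnc2* in the same list, was at -1.87 ± 0.53 (SE, adjusted p = 0.051) on Day 3, -2.22 ± 0.54 (SE, adjusted p = 0.023) on Day 7 and -2.67 ± 0.55 (SE, adjusted p = 0.0079) at 4 weeks. *Calb2* and *Dmkn*, markers of mesothelium in other organs, had at most 5 counts and 1 count in any library and were not tested. The single fits named below also called fewer of all tested genes lower, except that of Day 7 without the second *Sox17*-*Erg* library. Leaving out 1 library took the number that fell to between 0 and 5 on Day 3, 3 and 10 on Day 7 and 5 and 12 at 4 weeks. On Day 3 the number was 0 without the first control or the first *Sox17*-*Erg* library of that day, 1 without the second *Sox17*-*Erg* library, and 3 without the second control library or any of 3 libraries of 4 weeks. On Day 7 it was 3 without the first *Sox17*-*Erg* library, 4 without the first control library and 6 without the second *Sox17*-*Erg* library. At 4 weeks it was 5 without the first and 7 without the second *Sox17*-*Erg* library.

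**Figure D4:**
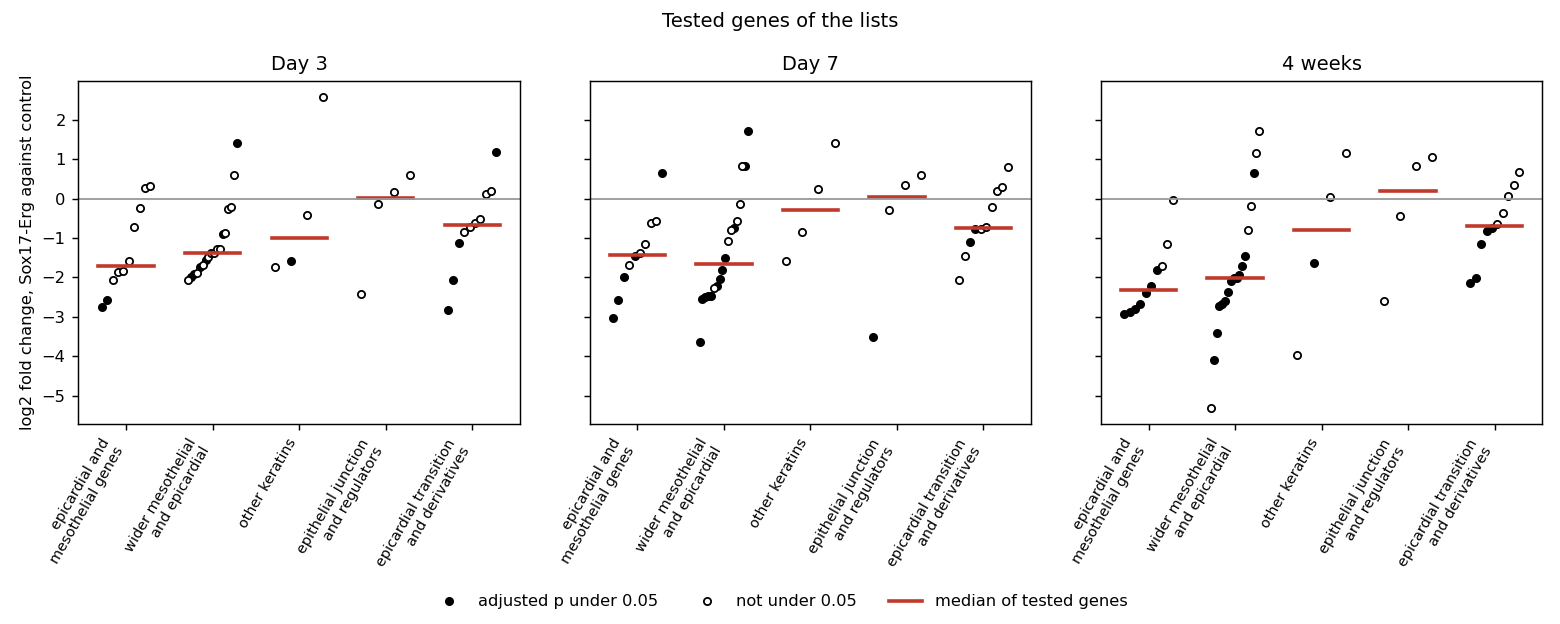
Log2 fold change of *Sox17*-*Erg* against control for each tested gene of 5 lists on Day 3, on Day 7 and at 4 weeks, without the replicate block, sorted within a list; filled points have an adjusted p under 0.05 and red bars are medians. The 10 epicardial and mesothelial genes and the wider list lie mostly under 0 at each time point, while the medians of the epithelial junction genes lie between 0.01 and 0.20.

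Near relatives of the 10 genes were mostly too low to test. None of 4 other uroplakins was tested, *Upk2* and *Upk3a* were at 0 in all 12 libraries, and *Upk1a* and *Upk3bl* did not exceed 0.389 and 0.402 CPM. Of 5 other membrane mucins only *Muc1* was tested, and it had no call against control, with log2 fold changes of -1.77 ± 0.51 (SE, adjusted p = 0.052), -0.75 ± 0.43 (SE, adjusted p = 0.27) and -0.86 ± 0.40 (SE, adjusted p = 0.16) in order of time. From Day 3 to 4 weeks *Muc1* rose in *Sox17*-*Erg* cells, with 2.03 ± 0.50 (SE, adjusted p = 0.015). Of 10 other keratins 4 were tested, and only *Krt7*, which mesothelial cells also express, was called against control without the block. *Krt14*, an epidermal keratin, was at 49 and 16 counts on Day 3 and at 0 and 4 counts at 4 weeks in control libraries, and was called lower there (adjusted p = 0.036). In *Sox17*-*Erg* libraries it was at 11 and 5 counts on Day 3 and at 0 in both at 4 weeks (adjusted p = 0.044), and no fold is given on such low counts. *Muc1* and *Krt14* are named here after their values were seen. *Krt7* was at 40.6 and 25.5 CPM in control and 13.2 and 8.15 CPM in *Sox17*-*Erg* libraries at 4 weeks, with -1.63 ± 0.44 (SE, adjusted p = 0.026), and it also fell on Day 3, with -1.57 ± 0.44 (SE, adjusted p = 0.049). Leaving out 1 library, the 4-week call of *Krt7* was kept in 9 of 12 fits and was lost without the first control or either *Sox17*-*Erg* library of that time. The Day 3 call was kept in 2, those without a control library of Day 7. With the replicate block *Krt7* fell on Day 7 too (adjusted p = 0.026) and *Krt20*, named after its values were seen, rose on Day 3 with a log2 fold change of 2.57 ± 0.71 (SE, adjusted p = 0.041). Of 12 epithelial junction genes and regulators 4 were tested, and *Cldn3*, a claudin, fell on Day 7 from 1.57 and 0.884 CPM to 0.0827 and 0.132 CPM, with -3.51 ± 0.92 (SE, adjusted p = 0.030), and with the block also at 4 weeks (adjusted p = 0.022). The Day 7 call of *Cldn3* was kept in 8 of 12 fits without 1 library and was lost without any of the 4 libraries of that day.

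Genes of the epicardial transition and of epicardial derivatives formed a list of 10, all tested, in which 3 fell and 1 rose on Day 3, 2 fell on Day 7 and 5 fell at 4 weeks. The shares of all tested genes that fell were 5.13%, 7.93% and 11.0%, and 7.19% rose on Day 3. The median log2 fold changes of the list were -0.66, -0.75 and -0.70, against 0.01, 0.01 and -0.01 over all genes. With the replicate block, 7, 6 and 7 fell, where 10.4%, 13.3% and 15.5% of all genes fell, and 1 rose at each time point, where 12.7%, 13.8% and 15.5% of all genes rose. Without 1 library the number that fell ran from 0 to 5, 1 to 6 and 1 to 6 in order of time. It was 0 on Day 3 without either control library or the first *Sox17*-*Erg* library of that day, 1 on Day 7 without the second control or the first *Sox17*-*Erg* library, and 1 at 4 weeks whichever library of that time was left out. Each of these fits also called fewer of all tested genes lower. *Gata6*, a GATA factor of the epicardium and heart mesoderm, was at 154 and 114 CPM in control and 67.1 and 52.9 CPM in *Sox17*-*Erg* libraries at 4 weeks, with -1.16 ± 0.18 (SE, adjusted p = 0.0018). *Sox9* fell at 4 weeks from 44.2 and 46.4 CPM to 9.49 and 13.0 CPM, with -2.01 ± 0.49 (SE, adjusted p = 0.017), and *Tbx20* fell on Day 3 from 1114 and 1453 CPM to 452 and 724 CPM, with -1.13 ± 0.24 (SE, adjusted p = 0.019). *Twist1*, a driver of mesenchymal transition, rose on Day 3 from 32.6 and 31.3 CPM to 75.0 and 68.9 CPM, with 1.17 ± 0.27 (SE, adjusted p = 0.025). This call was kept in 8 of 12 fits without 1 library and was lost without any of the 4 libraries of that day. The *Tbx20* call on Day 3 was kept in 9 and the *Sox9* call at 4 weeks in 8. *Tcf21*, a factor of epicardium-derived fibroblasts that is also in the fibroblast list, fell on Day 3 and at 4 weeks. Other transition factors of the list differed from *Twist1*. With the block on Day 3, *Snai1* (-0.73 ± 0.10, adjusted p = 0.0039), *Snai2* (-0.88 ± 0.16, adjusted p = 0.012) and *Zeb1* (-0.62 ± 0.10, adjusted p = 0.0072) fell. *Zeb2* (0.19 ± 0.12, adjusted p = 0.30) did not pass there. Without the block, *Zeb1* fell on Day 7 and *Snai2* at 4 weeks.

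The study marked a single-cell cluster of its own, from other samples, by 10 genes that include *Msln* and *Upk1b*. Of these, *Ezr* and *C3* are also in the wider list and *Dcn* in the fibroblast list. In these bulk libraries 4 of the 10 fell on Day 3, 7 on Day 7 and all 10 at 4 weeks, against 5.13%, 7.93% and 11.0% of all tested genes. With the block 9, 9 and 10 fell, against 10.4%, 13.3% and 15.5%. Without 1 library, 1 to 5, 6 to 8 and 5 to 10 fell, with 1 on Day 3 without the first control or the first *Sox17*-*Erg* library and 2 without the second control library, and at 4 weeks 6 without the first control and 5 without the second *Sox17*-*Erg* library. Lower calls over all tested genes also went down in the single fits named here. The median log2 fold changes were -1.65, -2.07 and -2.46, against 0.01, 0.01 and -0.01 over all genes. The list was chosen by the study on related cultures, so its direction is not independent evidence. *Igfbp6*, an insulin-like growth factor binding protein, fell at 4 weeks from 1188 and 707 CPM to 196 and 134 CPM, with -2.52 ± 0.30 (SE, adjusted p = 0.00051). The metallothionein genes *Mt2* (-3.03 ± 0.41, adjusted p = 0.0011) and *Mt1* (-2.34 ± 0.36, adjusted p = 0.0020) fell as well at 4 weeks.

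Markers of other cells moved beside these genes. As said above, *Col1a1* and *Col1a2* carried most of the fibroblast sum, *Tnnt2* of the cardiomyocyte sum and *Lyz2* of the macrophage sum. The sum of the 10 epicardial and mesothelial genes was 399.5 to 931 CPM in control and 238 to 331 CPM in *Sox17*-*Erg* libraries on Day 3, 618 to 1147 against 313 to 411 CPM on Day 7, and 990.3 to 1543 against 229 to 323 CPM at 4 weeks. The sum of 7 fibroblast markers was 24649 to 29785 CPM in control and 19196 to 30902 CPM in *Sox17*-*Erg* libraries on Day 3, 18967 to 23462 against 24897 to 25735 CPM on Day 7, and 12432 to 13951 against 8547 to 9628 CPM at 4 weeks. The fibroblast sum thus overlapped on Day 3, was higher in *Sox17*-*Erg* libraries on Day 7 and lower at 4 weeks. In order of time, 1, 3 and 4 of its 7 genes fell, where 5.13%, 7.93% and 11.0% of all tested genes fell. The median log2 fold change of the 7 genes was -1.57, -1.91 and -2.14, beside -1.70, -1.42 and -2.31 for the 10 epicardial and mesothelial genes. The sum of 6 cardiomyocyte markers was 873 to 1499 CPM in control and 322 to 395 CPM in *Sox17*-*Erg* libraries on Day 3, 607 to 858 against 351 to 445 CPM on Day 7, and 1027 to 1259 against 666 to 678 CPM at 4 weeks. In order of time, 1, 3 and 4 of the 6 fell, against the same 5.13%, 7.93% and 11.0% of all tested genes. The sum of 5 smooth muscle markers was 3103 to 3506 CPM in control and 4175 to 4493 CPM in *Sox17*-*Erg* libraries on Day 3, 481 to 1274 against 1634 to 4059.7 CPM on Day 7, and 939.7 to 2448 against 3853 to 4036 CPM at 4 weeks. Of these 5, *Cnn1*, *Myh11* and *Acta2* rose and *Des* fell on Day 7, and *Cnn1* and *Myh11* rose and *Des* fell at 4 weeks. The sum of 6 macrophage markers overlapped between the groups on Day 3 and at 4 weeks and was 784 to 1172 CPM in control and 237 to 399 CPM in *Sox17*-*Erg* libraries on Day 7. Of the 7 endothelial markers 4, 5 and 6 rose in order of time, where 7.19%, 9.48% and 11.9% of all tested genes rose. The part of these cell types in the mesothelial values was not tested.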

How the data were processed

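Estimated counts per gene were analysed for 12 bulk RNAseq libraries. The authors quantified reads with Salmon and deposited expected counts, rounded to whole numbers and not scaled for library size. Per the submitters' notes, bcl2fastq 2.20.0, BBDuk and mm10 were used; the Salmon version and annotation are not given in the sources used here. Samples were grouped by the labels' treatment and time, with 2 libraries per group. Positions, exon lengths and shared words came from GENCODE M21 on GRCm38, and promoters from RefSeq.

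In R 4.3.3, edgeR 4.0.16 was fitted to all 12 libraries with TMM factors, filterByExpr (minimum count 10, minimum total 15; 15506 genes kept), 1 mean per group, 6 residual degrees of freedom and the quasi-likelihood test, with Benjamini-Hochberg adjustment over all tested genes; a gene was called at an adjusted p under 0.05. CPM are counts divided by the TMM-scaled library size (edgeR's cpm). The study's methods name DESeq2, and DESeq2 1.42.0 was run as an alternative, together with other scalings, filters and thresholds, a GC offset, replicate blocks and each library left out. The scripts were tested on simulated data. With 2 libraries per group errors are themselves imprecise, and replicates differed by more than counting error.

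Same-numbered libraries were checked for pairing by correlating deviations from group means over 15506 genes. *Sox17*-*Erg* and control correlated at 0.19 at Day 3, 0.30 at Day 7 and 0.17 at 4 weeks, so numbers were taken to pair treatments within a time point, from the data and not from a label. Between Day 3 and Day 7 correlations ran from 0.14 to 0.22, and between 4 weeks and the earlier days from -0.14 to -0.01. Control comparisons with Day 3 are given without a block and with one over all libraries. The members and lists were chosen with earlier results of these data known. From each list, up to 4 called genes with the smallest adjusted p over the 3 time points were named. No column of the count table was left out.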

Additional observations from a re-analysis of the deposited data

How the results depend on the processing

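Of 870 log2 fold changes and permutation differences of single genes under other settings, 763 kept their direction and their side of the threshold, 28 lost the threshold, 74 gained it and 5 reversed. Over the fits without 1 library, 861 of 960 values were kept, 63 lost the threshold, 8 gained it and 28 reversed. The permutation test was not run without single libraries. Its version with swaps within pairs, in effect a replicate block, was chosen after seeing the data and lost *Tbx18*. Counts of called genes below are in the order *Sox17*-*Erg* against control at Day 3, Day 7 and 4 weeks, control Day 7 against Day 3, control 4 weeks against Day 7, control 4 weeks against Day 3, *Sox17*-*Erg* 4 weeks against Day 3, and the difference in effect, with 2, 5, 7, 1, 0, 3, 4 and 0 as reported. DESeq2's Wald test gave 6, 6, 8, 3, 0, 4, 5 and 1. Calls over all tested genes moved with the setting too. On Day 3 DESeq2 called 1380 genes higher and 1250 lower of 14727, against 1115 and 795 of 15506 as reported. Every gene with a count kept gave 6, 8, 9, 2, 0, 7, 6 and 1, and 1 CPM in 2 libraries gave 4 at Day 3 and otherwise the reported counts. Library totals alone gave 0 for control Day 7 against Day 3 and 3 for *Sox17*-*Erg* over time. Only the 4 libraries compared gave 3 at Day 7, where *Tbx18* and *Krt19* were lost, 0 for control Day 7 against Day 3 and 1 for control 4 weeks against Day 3. At Day 7 that setting called 609 genes higher and 479 lower of 14576, against 1470 and 1230 as reported. An adjusted p under 0.01 left 0, 1, 4, 0, 0, 0, 2 and 0. On Day 3 it left 304 genes higher and 117 lower of all 15506. DESeq2 size factors changed no count, and the GC offset only took control 4 weeks against Day 3 to 2.

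The replicate block within time points gave 7, 10 and 9 for the treatment comparisons and 3 for the difference, and changed no other call of these genes than those named beside the results. The replicate block over all libraries gave 7, 8, 9, 5, 0, 7, 6 and 3; same-numbered control libraries of different days are not known to be related. A block with the numbers crossed at 4 weeks, chosen after seeing the data because control libraries at 4 weeks correlated at -0.10 and -0.11 with the same numbers at Day 3 and Day 7, gave 5, 5, 7, 1, 0, 2, 4 and 0, and called no gene lower in control 4 weeks against Day 3. Without 1 library the counts ran from 0 to 3, 1 to 6, 2 to 8, 0 to 1, 0 to 0, 1 to 3, 1 to 4 and 0 to 0 in the same order. The number of all tested genes called also moved in these fits, and the cause of these changes was not tested.

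None of the reversed values was called. *Tbx18* at 4 weeks was 0.023 with library totals. *Upk1b* in control Day 7 against Day 3 was 0.039 with the replicate block over all libraries and 0.0018 with the GC offset. With the crossed block *Krt8* in control 4 weeks against Day 7 was 0.10 and *Lrrn4* in control 4 weeks against Day 3 was 0.081. Without 1 library, the log2 values with any reversal ran from -0.68 to 0.25 for *Wt1* at Day 3, -0.29 to 0.80 for *Krt18* at Day 3 and -0.15 to 0.043 for *Tbx18* at 4 weeks. In control Day 7 against Day 3 they ran from -0.58 to 0.89 for *Upk1b* and -0.34 to 0.98 for *Lrrn4*, and in control 4 weeks against Day 7 from -0.68 to 0.25 for *Lrrn4* and -0.76 to 0.50 for *Krt8*. In control 4 weeks against Day 3 they ran from -0.60 to 0.74 for *Lrrn4* and -0.10 to 1.38 for *Upk1b*. *Muc16* in *Sox17*-*Erg* 4 weeks against Day 3 ran from -1.05 to 0.39, and *Upk3b* in the difference in effect from -1.23 to 0.42.

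*Krt19* is limited by depth, since 3 counts correspond to 0.106 and 0.111 CPM in the *Sox17*-*Erg* libraries at 4 weeks, about its level there. Scaling moved the median of all genes by less than 0.1 on the log2 scale in every comparison.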
